A study of Mus musculus with 26 samples.

Results

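Choroid plexus (ChP), the epithelial tissue that secretes cerebrospinal fluid, was profiled by RNA-seq in 26 mice, and 9 transporter genes were followed through all libraries. These were Slc2a1, Slc2a4, Slc2a8, Slc2a9 and Slc2a12 of the glucose transporter family, and Slc16a1, Slc16a6, Slc16a8 and Slc16a9 of the monocarboxylate transporter family. They were taken by their symbols from 55416 listed genes, and all 9 were among the 13697 genes expressed highly enough to be tested, with a mean of at least 1 CPM (counts scaled to a common library size) in Ctrl and in SCNx, the groups of the time series.

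Proteins of the SLC2 family let sugars, and in the case of GLUT9 urate, pass membranes down their gradient. Proteins of the SLC16 family move small acids such as lactate, pyruvate and ketone bodies, several of them together with protons and with basigin or embigin as a partner in the membrane. ChP epithelium takes glucose from the blood through GLUT1 on its basolateral side, and MCT3 is otherwise known from the retinal pigment epithelium, where it exports lactate.

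The time series came from adult male C57Bl6J mice, of which 12 had sham surgery (Ctrl) and 12 had a bilateral electrolytic lesion of the suprachiasmatic nuclei (SCNx), the seat of the central circadian clock. Both groups were kept in a light-dark cycle and then in constant darkness, where 1 mouse of each group was killed every 4 h from CT0 to CT44, so that every time point of a group is a single animal. The ChP of the 4th ventricle was removed with pincers. A further 2 adult males, the KO, carried FoxJ1-ERT2-Cre+/- together with Bmal1fl/fl and ate a diet with tamoxifen, which deletes part of Bmal1 (Arntl) in cells that use the FoxJ1 promoter, epithelial cells with motile cilia within and outside the ChP. They were older than the other mice, lived in a light-dark cycle in another laboratory, and were killed at ZT7 and ZT18, 1 mouse at each time, with no floxed littermate without Cre analysed here. Their ChP was cut from frozen sections by laser capture and made into libraries with another kit, so that the levels of the transporters were not compared with those in Ctrl and SCNx.

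Libraries of Ctrl and SCNx held 38751201 to 49527655 estimated counts, and those of KO 17425207 and 18059227. The ChP markers, 10 genes with Ttr at their head, summed to between 142917 and 166584 CPM in Ctrl and between 105734 and 166918 CPM in SCNx, the lowest being SCNx CT32. Markers of liver or brain set 4 libraries apart. The 9 hepatocyte markers summed to 2393 CPM in Ctrl CT16 and 11306 CPM in SCNx CT0, against at most 34.3 CPM in any other library of the series, and the 5 astrocyte markers to 729 CPM in Ctrl CT4 and 817 CPM in SCNx CT32, against at most 307 CPM in the others of the time series. The levels, rhythms and their differences were also computed without these libraries, which are those meant below by libraries that stood apart. A further library, SCNx CT44, was rich in blood, with 6642 CPM of red blood cell markers against at most 1521 CPM in any other library, and it was the highest SCNx library for Slc2a4 and Slc2a12. Without it the members called were 5 for a rhythm in Ctrl, 0 for a rhythm in SCNx, 1 for a difference in rhythm and 0 for level, the same counts as with all libraries. The shares of all genes called without it are not given here. In pieces of whole tissue, fewer cells of a type and less RNA per cell cannot be told apart.

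Compared per kilobase of transcript, Slc2a12, which encodes the facilitative transporter GLUT12, was the most abundant of the 9 genes. Its level in Ctrl was 109 ± 12.7 CPM per kb (SD, n = 12), and its lowest library, at 86.7, lay above the highest library of every other member. Then came a group of 4 genes whose libraries overlapped, with Slc16a8 (MCT3) at 34.2 ± 4.41, Slc16a9 (MCT9) at 31.4 ± 3.03, Slc2a1 (GLUT1) at 31.1 ± 3.08 and Slc16a6 (MCT7) at 29.5 ± 8.14 CPM per kb (SD, n = 12 each). The order inside this group was not settled, since Slc16a8 moved from the second to the fourth place when all exons of a gene were counted in place of its longest coding transcript.

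Lower levels were measured for Slc2a8 (GLUT8), which sits on membranes inside the cell, and for Slc16a1 (MCT1), the widespread lactate carrier, at 8.06 ± 0.884 and 4.99 ± 0.892 CPM per kb in Ctrl (SD, n = 12 each). Their libraries overlapped narrowly. Slc2a4 (GLUT4), the insulin-responsive transporter of muscle and fat, stood at 1.66 ± 0.474 CPM per kb and Slc2a9 (GLUT9) at 0.674 ± 0.255 (SD, n = 12 each), and these last levels did not overlap. The lengths come from GENCODE M21 on GRCm38, a build other than the one the authors used.

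**Figure D1:**
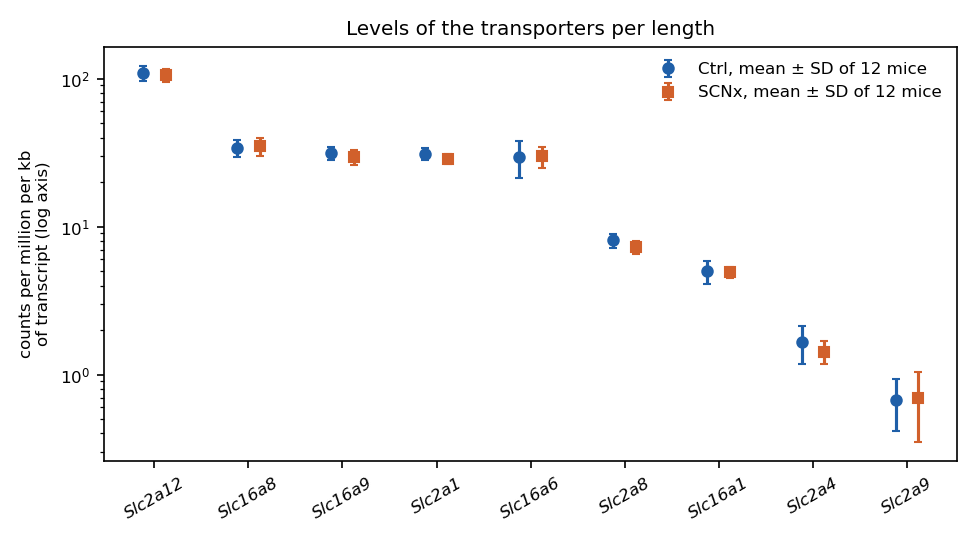
Level of each transporter in CPM per kilobase of its longest coding transcript on a log axis, as the mean with its SD over the 12 mice of Ctrl (circles) and of SCNx (squares). Slc2a12 stands at 109 CPM per kb in Ctrl, the next 4 genes lie between 29.5 and 34.2, and Slc2a9 is lowest at 0.674.

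None of the 9 transporters differed in level between SCNx and Ctrl when the time points were pooled. The log2 differences, SCNx minus Ctrl, ran from -0.21 for Slc2a4 to 0.05 for Slc2a9, and edgeR's quasi-likelihood test, adjusted after Benjamini and Hochberg over all genes, called 0 of 9 members, beside 0 of 13697 genes (0%) in all. At an unadjusted p under 0.05 the members counted 2 and all genes 1283, and DESeq2 called 0 members and 14 genes, limma 0 and 0.

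Slc2a1 and Slc2a8 were the pair with an unadjusted p under 0.05. Slc2a1 (ENSMUSG00000028645, chr4:119108711-119137983, GRCm38) had its lowest, median and highest Ctrl library at 83.9, 99.0 and 119 CPM and its SCNx libraries at 83.6, 92.9 and 105 CPM. The groups overlapped over most of their range, and the log2 difference was -0.11 ± 0.05 (SE, adjusted p = 0.514). Slc2a8 (ENSMUSG00000026791, chr2:32972990-32982083, GRCm38) had 13.7, 16.6 and 19.8 CPM in Ctrl and 12.5, 15.2 and 18.0 CPM in SCNx, again with overlap. Its log2 difference was -0.15 ± 0.06 (SE, adjusted p = 0.473).

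The other members, among them Slc2a4 with the largest fitted difference of the 9, had adjusted p-values between 0.645 and 0.983 in the same edgeR test. Over the 24 fits with 1 library left out, the log2 difference of Slc16a6 lay between -0.03 and 0.08, that of Slc16a8 between -0.01 and 0.07, that of Slc16a1 between -0.05 and 0.04 and that of Slc2a9 between -0.16 and 0.12, so that these 4 had no settled sign. The lowest library of 5 members in SCNx was SCNx CT32, where the ChP markers were at their lowest and the astrocyte markers at their highest. The part of other tissue in these low values was not tested.

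A 24 h rhythm was found in Ctrl for 5 of the 9 transporters: Slc2a1, Slc2a4, Slc2a12, Slc16a1 and Slc16a6. A curve with a period of 24 h was fitted to the 12 mice of each group, and the same edgeR procedure called 10.7% of all 13697 genes rhythmic in Ctrl. The members were picked with earlier results of these data known, so that their share is a description. The peaks of the 4 glucose and lactate transporters Slc2a1, Slc2a4, Slc2a12 and Slc16a1 fell between CT7.21 and CT13.1, between the middle of the subjective day and shortly after its end, whereas Slc16a6 peaked at CT22.3, late in the subjective night. A single library, Ctrl CT44, was the lowest of Ctrl for 5 members, namely Slc2a1, Slc2a4, Slc2a8, Slc16a8 and Slc16a9. Without it only Slc16a6 kept its call, as given below.

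Markers of some other cell types had fitted curves with peaks at like times in Ctrl. Their summed levels had log2 amplitudes of 0.25 for endothelium (peak at CT8.28), 0.17 for fibroblasts (CT9.85), 0.16 for macrophages (CT7.91), 0.51 for red blood cells (CT7.64) and 0.37 for astrocytes (CT5.61), against 0.02 for the ChP epithelium. Astrocyte markers were at 729 CPM in Ctrl CT4 and at most 181 CPM in the other Ctrl libraries. The other lists peaked at CT2.01 (neurons and cerebellum, 0.48), CT3.19 (muscle and adipocytes, 0.31), CT3.95 (oligodendrocytes, 0.06) and CT16.0 (hepatocytes, 2.50). The amplitudes of Slc2a1 and Slc16a1, given below, were of the same size as those of endothelium, fibroblasts and macrophages, and the part of these cells in the rhythms of the transporters was not tested.

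**Figure D2:**
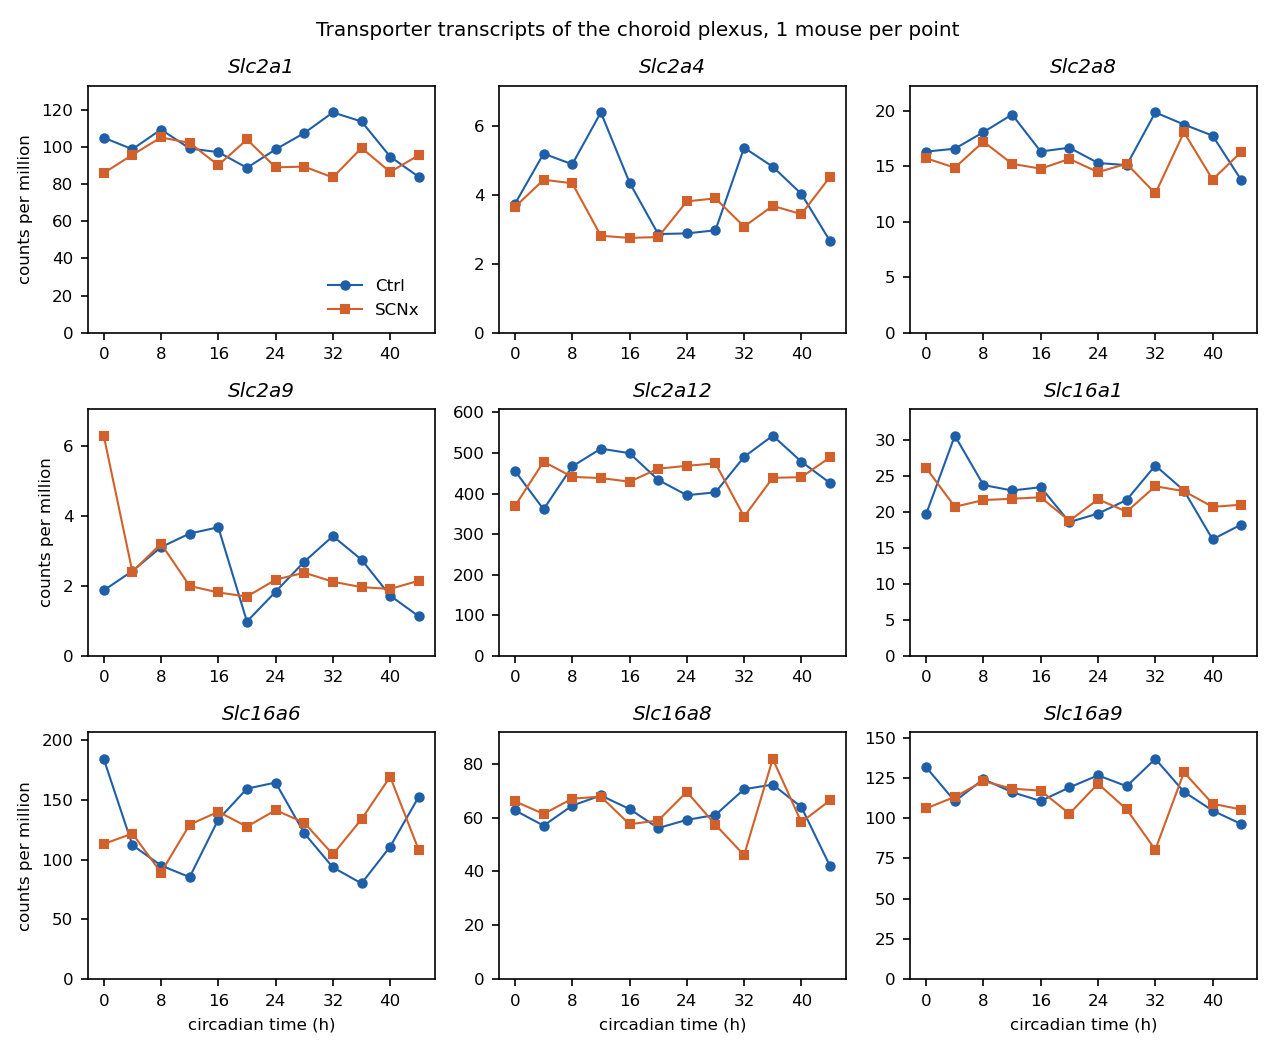
CPM of each transporter by circadian time in Ctrl (circles) and SCNx (squares), 1 mouse per point and each axis starting at 0. Slc16a6 of Ctrl is highest at CT0 with 184 CPM and lowest at CT36 with 80.2 CPM, while Slc2a4 of Ctrl is highest at CT12 with 6.40 CPM, and SCNx CT0 stands out for Slc2a9 with 6.30 CPM.

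Slc16a6 had the firmest rhythm of the 9 genes. It encodes MCT7, a carrier known for taurine and ketone bodies (ENSMUSG00000041920, chr11:109450855-109473598, GRCm38). Its Ctrl libraries had 184 CPM at CT0, 112 at CT4, 95.2 at CT8, 85.4 at CT12, 134 at CT16 and 159.5 at CT20, and in the next cycle 165 at CT24, 122 at CT28, 93.6 at CT32, 80.2 at CT36, 111 at CT40 and 153 at CT44. The 4 mice killed at CT8, CT12, CT32 and CT36 were therefore below all 8 others. The fitted log2 amplitude, from the mean of the curve to its peak, was 0.52 ± 0.05 (SE), which is a 2.06-fold range from trough to peak, with the peak at CT22.3 ± 0.344 h (SE) and an adjusted p of 0.000172, the 120th smallest of all genes tested.

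This rhythm passed the edgeR test without any 1 of the 24 libraries, without the 4 libraries that stood apart, and under DESeq2, limma-trend and the rank test. The first and the second cycle gave similar curves when fitted apart, with log2 amplitudes of 0.54 and 0.51 and peaks at CT21.8 and CT22.8.

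In SCNx, Slc16a6 had a mean of 126 ± 20.8 CPM against 125 ± 34.3 CPM in Ctrl (SD, n = 12 each), and its libraries had 89.2 CPM at the lowest (CT8), 129 at the median and 169.5 at the highest (CT40). The range lay inside that of Ctrl, and the highest SCNx mouse was killed at CT40, when the Ctrl mouse was at 111 CPM. The fitted amplitude in SCNx was 0.16 ± 0.09 (SE, adjusted p = 0.394), with a peak at CT17.6 ± 2.16 h (SE). Slc16a6 was the only member whose rhythm differed between Ctrl and SCNx in the test of the difference itself (adjusted p = 0.0268), which called 2.12% of all genes. At an unadjusted p under 0.05 the members counted 4, with Slc2a4, Slc2a9 and Slc2a12 beside Slc16a6, and all genes 2067 (15.1%). That call is close to the threshold. It was lost without Ctrl CT0, CT12 or CT36 and without SCNx CT0, CT12 or CT36, with adjusted p-values between 0.0547 and 0.0597, and held in the other 18 fits that left out 1 library.

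Slc2a4 (ENSMUSG00000018566, chr11:69942539-69948188, GRCm38) was the glucose transporter with the largest amplitude among those called, at a level of 4.19 ± 1.20 CPM in Ctrl (SD, n = 12). Its Ctrl libraries had 2.66 CPM at the lowest (CT44), 4.20 at the median and 6.40 at the highest (CT12), and the mice of CT20, CT24, CT28 and CT44 were the 4 lowest, all under 3 CPM. The log2 amplitude was 0.47 ± 0.10 (SE), a 1.93-fold range, with the peak at CT9.93 ± 0.834 h (SE, adjusted p = 0.0134). The call was lost without Ctrl CT12 (adjusted p = 0.0512) or without Ctrl CT44 (adjusted p = 0.0501). The SCNx libraries, from 2.75 to 4.53 CPM, covered the lower part of the range of Ctrl, and their curve had an amplitude of 0.19 ± 0.10 (SE, adjusted p = 0.527). The rhythms of Ctrl and SCNx did not pass the test of a difference (adjusted p = 0.107), although DESeq2 called one (adjusted p = 0.0392).

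GLUT4 is known as the transporter of muscle and fat. The 5 markers of muscle and adipocytes (Acta1, Ckm, Myh1, Adipoq and Plin1) summed to at most 2.59 CPM in any library of Ctrl and 2.03 CPM in SCNx, with medians of 0.124 and 0.0924 CPM. Which cells the Slc2a4 transcripts came from was not tested.

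Slc2a1 and Slc2a12 had shallow curves. Slc2a1 was highest in Ctrl CT32 and lowest in Ctrl CT44, with a log2 amplitude of 0.16 ± 0.04 (SE), a 1.25-fold range, and a peak at CT7.71 ± 0.866 h (SE, adjusted p = 0.0413). In SCNx its amplitude was 0.04 ± 0.05 (SE). The curves of Slc2a1 in the first and second cycle of Ctrl differed in size, with log2 amplitudes of 0.10 and 0.23.

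Slc2a12 (ENSMUSG00000037490, chr10:22645011-22704285, GRCm38) had 361, 461 and 543 CPM as its lowest, median and highest Ctrl libraries, at CT4 and CT36 for the extremes, and 343, 441 and 489 CPM in SCNx. The 2 groups overlapped almost entirely. Its log2 amplitude in Ctrl was 0.19 ± 0.04 (SE), a 1.31-fold range, with the peak at CT13.1 ± 0.789 h (SE, adjusted p = 0.0450). The SCNx amplitude was 0.06 ± 0.07 (SE), and the difference between the groups passed the test without the 4 libraries that stood apart (adjusted p = 0.0118) but not with all libraries (adjusted p = 0.203).

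Slc16a1 (ENSMUSG00000032902, chr3:104638668-104658462, GRCm38) was the other monocarboxylate transporter called. It had 16.2 CPM at its lowest in Ctrl (CT40), 22.4 at the median and 30.7 at its highest (CT4), with a log2 amplitude of 0.26 ± 0.07 (SE), a 1.43-fold range, and a peak at CT7.21 ± 1.11 h (SE, adjusted p = 0.0325). Its highest library was thus Ctrl CT4, rich in astrocyte markers. Without Ctrl CT4 and SCNx CT32 the amplitude was 0.21 with a peak at CT8.33, and the rhythm still passed the test (adjusted p = 0.0411). SCNx libraries lay closer together, from 18.8 to 26.2 CPM, with an amplitude of 0.04 ± 0.05 (SE).

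The calls of Slc2a1, Slc2a12 and Slc16a1 lie near the threshold. With 1 library left out, Slc2a12 lost its call in 15 of 24 fits, Slc2a1 in 9 and Slc16a1 in 9, with adjusted p-values of at most 0.111, 0.161 and 0.0960. The number of rhythmic members in Ctrl was accordingly 1 without Ctrl CT44, where only Slc16a6 remained, 2 without Ctrl CT12, CT20, CT24, CT32 or CT36, and 3 without Ctrl CT8, CT28 or CT40 or without SCNx CT12. In the other fits that left out 1 library it was 4 to 6. The shares of all genes called in these fits are not given here. The counts therefore do not tell a loss of calls in the members from one over all genes. A rank test against triangular templates called 3 members, Slc2a1, Slc2a12 and Slc16a6, beside 6.69% of all genes. DESeq2 called 7, all but Slc16a8 and Slc16a9, beside 15% of all genes, and limma-trend called 6, the 5 of edgeR and Slc2a9, beside 10% of all genes.

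In the edgeR test, 4 members had no call in Ctrl. Slc2a9, the urate transporter (ENSMUSG00000005107, chr5:38349273-38503143, GRCm38), had 0.981, 2.56 and 3.68 CPM as its lowest, median and highest library in Ctrl, at CT20 and CT16 for the extremes, and 1.70, 2.14 and 6.30 CPM in SCNx, at CT20 and CT0. The highest library of each group was the one rich in hepatocyte markers. The fitted amplitude in Ctrl was large, at 0.66 ± 0.16 (SE) on the log2 scale, with a peak at CT9.46 (adjusted p = 0.0670). With all libraries kept, DESeq2 and limma-trend called it (adjusted p = 0.0320 and 0.0295).

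Without Ctrl CT16 and SCNx CT0, Slc2a9 passed the test, with an amplitude of 0.76, a peak at CT8.23 and an adjusted p of 0.000219. The members called in Ctrl were then 6, beside 12.3% of all genes. The log2 difference in level also turned from 0.05 to -0.09 without these libraries, with adjusted p-values of 0.970 and 0.872. The difference between the rhythms of Ctrl and SCNx had an adjusted p of 0.131 with all libraries and 0.0706 without this pair.

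**Figure D3:**
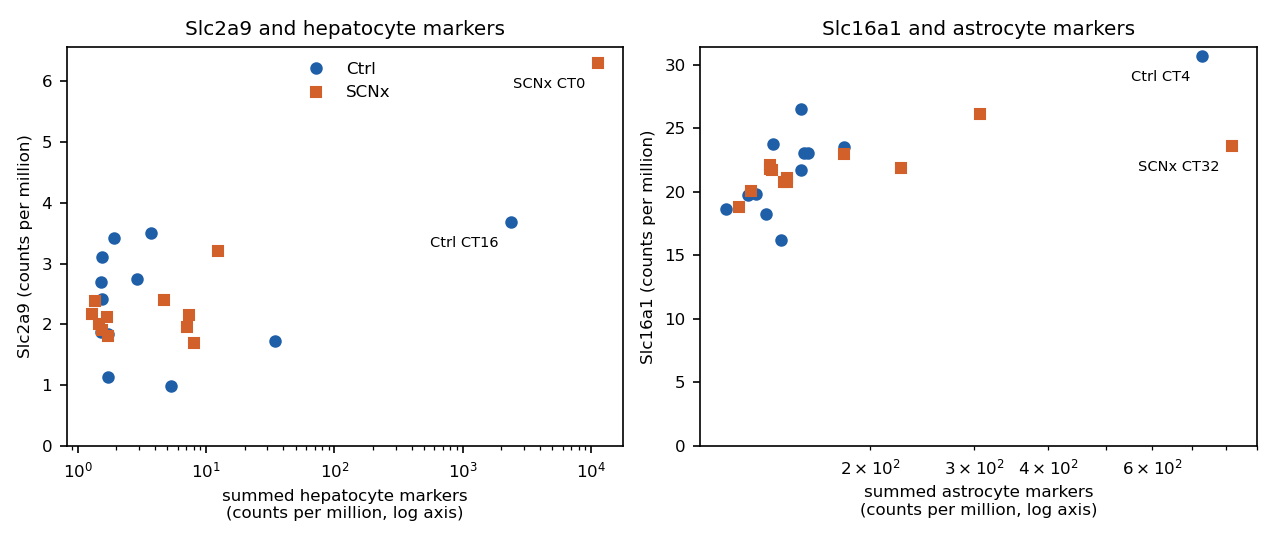
CPM of Slc2a9 against the summed hepatocyte markers (left) and of Slc16a1 against the summed astrocyte markers (right) in each library of Ctrl (circles) and SCNx (squares), with the marker sums on log axes. Slc2a9 reaches 6.30 CPM in SCNx CT0 and 3.68 in Ctrl CT16, the libraries with 11306 and 2393 CPM of hepatocyte markers, and Slc16a1 reaches 30.7 CPM in Ctrl CT4.

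Slc2a8 had a curve like that of its relatives, with a log2 amplitude of 0.18 ± 0.04 (SE), a peak at CT10.6 and an adjusted p of 0.0745, while DESeq2 called it (adjusted p = 0.0439). Without Ctrl CT4 and SCNx CT32 it passed the test (adjusted p = 0.0406), among 6 members called beside 16.4% of all genes. Without all 4 libraries that stood apart, 7 members were called, namely all but Slc16a8 and Slc16a9, beside 21.7% of all genes.

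Slc16a8 (ENSMUSG00000032988, chr15:79251014-79254761, GRCm38) had 42.0, 62.9 and 72.3 CPM as its lowest, median and highest library in Ctrl and 46.03, 63.7 and 81.8 CPM in SCNx, with both maxima at CT36. Its curve in Ctrl had a log2 amplitude of 0.19 ± 0.07 (SE, adjusted p = 0.227). Slc16a9, whose product is linked to carnitine (ENSMUSG00000037762, chr10:70245100-70285968, GRCm38), had 96.4, 118 and 137 CPM in Ctrl and 80.4, 111 and 129 CPM in SCNx. It had the smallest amplitude of the 9 genes in Ctrl, 0.11 ± 0.05 (SE, adjusted p = 0.464), and neither gene was called under any alternative tried with the edgeR fit, DESeq2 or limma-trend.

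No member was called rhythmic over circadian time in SCNx. Each time point is a single mouse, so a curve across mice cannot tell lost rhythms from rhythms whose phase differs between mice. The edgeR test called 0 of 9 members, beside 0 of 13697 genes (0%), and 0 members and 2032 genes had an unadjusted p under 0.05. DESeq2 called 0 members and 432 genes, and limma-trend 0 and 0. The median log2 amplitude of the 9 members was 0.19 in Ctrl and 0.05 in SCNx, beside 0.11 and 0.09 for all genes tested, and the fitted amplitude was the larger in Ctrl for each of the 9, as it was for 55.3% of all genes. Since the members were chosen with earlier results of these data known, this comparison is a description. A fitted amplitude is never below 0 and takes up noise, and in SCNx it was below its own standard error for 6 of the 9.

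**Figure D4:**
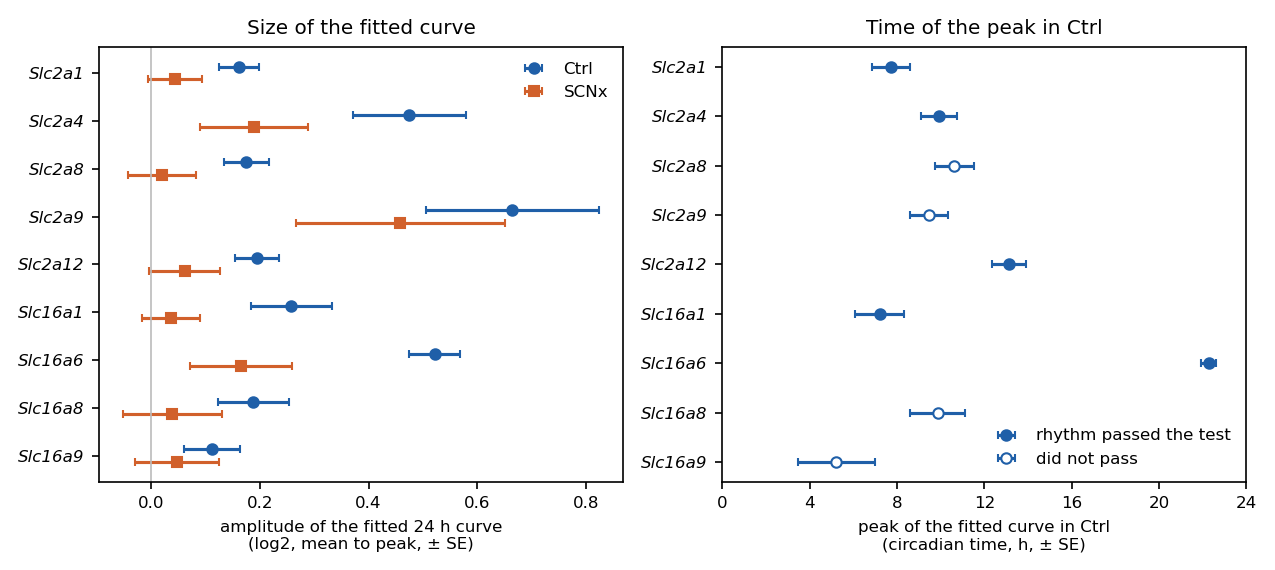
Left, log2 amplitude of the fitted 24 h curve with its SE for each transporter in Ctrl (circles) and SCNx (squares). Right, peak time of the curve in Ctrl with its SE, filled where the rhythm passed the test. Slc16a6 peaks at CT22.3, and the other 4 members that passed lie between CT7.21 and CT13.1.

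Transcripts that followed the transporters most closely over the 12 mice of Ctrl were sought by Pearson's correlation of log2 CPM, as a description only, since all points share the same libraries and time course. Nearest to Slc16a6 were Ap2a2 (r = 0.969), a subunit of the clathrin adaptor AP-2, the lipid kinase gene Pik3cb (r = 0.966) and Gm38910 (r = 0.964), and their own peaks fell between CT21.8 and CT22.9. Nearest to Slc2a1 was Pygb (r = 0.958), the brain form of glycogen phosphorylase, which frees glucose units from glycogen. Then came Ap1b1 (r = 0.943) and Cyp2j6 (r = 0.940).

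The closest to Slc2a4 were Mrc2 (r = 0.984), an endocytic collagen receptor, the chloride channel gene Clcn2 (r = 0.975) and Acvr1b (r = 0.942), a receptor for activins. Slc2a12 ran most like Sgms2 (r = 0.949), which makes sphingomyelin, the deubiquitinase gene Usp2 (r = 0.941) and Sfrp5 (r = 0.938). The nearest to Slc16a1 were Hepacam (r = 0.949), a gene of astrocytes, Cdc25b (r = 0.943) and Gpd1 (r = 0.936), of which none was called rhythmic in Ctrl.

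Promoter sequences, which can be read for motifs of clock and hypoxia factors, were available for 7 of the 9 members in the RefSeq table of GRCm38.p6, and not for Slc16a6 and Slc2a4. In windows from 250 bases before to 50 after the RefSeq start, on both strands, the E-box CACGTG was found in 1 member, Slc16a1, and in 7.15% of 32851 promoters. The core TAGGTCA or AAGGTCA of the ROR element was found in 1 member, Slc2a9, and in 7.16% of promoters. The RefSeq start of Slc2a9 lies inside the gene as GENCODE gives it (window chr5:38483336-38483635), so that this match is not at the outermost start. The hypoxia element core ACGTG, which overlaps the E-box, was found in 2 members, Slc2a1 and Slc16a1, and in 19.6% of promoters. Neither the D-box (TTATGTAA or TTACGTAA, 1.06% of promoters) nor the glucocorticoid element (0.475%) was present in the 7 windows.

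The 250 bases before the RefSeq start are shown for the members with a rhythm in Ctrl and a searched motif there, with the motif in capitals. They are chr4:119108495-119108744 for Slc2a1 and chr3:104638414-104638663 for Slc16a1, both on the plus strand of GRCm38.p6. A match of letters is a description and shows no binding.
Slc2a1: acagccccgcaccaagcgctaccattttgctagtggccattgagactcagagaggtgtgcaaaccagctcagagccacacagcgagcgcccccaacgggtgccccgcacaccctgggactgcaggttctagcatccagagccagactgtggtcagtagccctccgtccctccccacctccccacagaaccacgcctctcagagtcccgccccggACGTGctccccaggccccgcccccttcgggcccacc
Slc16a1: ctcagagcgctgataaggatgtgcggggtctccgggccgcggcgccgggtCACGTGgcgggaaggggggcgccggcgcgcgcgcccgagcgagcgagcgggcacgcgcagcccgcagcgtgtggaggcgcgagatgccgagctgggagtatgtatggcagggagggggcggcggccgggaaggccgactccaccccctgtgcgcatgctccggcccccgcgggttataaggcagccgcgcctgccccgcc
The capitals in Slc2a1 lie 36 bases before the start, and those in Slc16a1 200 bases before it. The fitted peaks in Ctrl were at CT7.71 ± 0.866 h for Slc2a1 and CT7.21 ± 1.11 h for Slc16a1 (SE). A link between the motifs and these times was not tested.

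In the KO, Arntl was still counted at 10.6 CPM at ZT7 and 9.36 CPM at ZT18. The deletion removes part of the gene in cells with FoxJ1 activity only, so that counts over the whole gene do not check it fully. Arntl ranged from 2.01 to 39.4 CPM in Ctrl and from 3.27 to 21.7 CPM in SCNx. The 5 astrocyte markers summed to 743 and 866 CPM in the KO libraries, and the 5 oligodendrocyte markers to 307 and 446 CPM, against medians of 147 and 74.2 CPM in Ctrl. With 1 mouse per time there is no test, and the 95% intervals given for the KO cover counting error only.

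Slc16a6 was at 47.8 CPM (exact Poisson interval 44.6 to 51.2) at ZT7 and 48.7 CPM (45.6 to 52.1) at ZT18. The night minus day difference was thus 0.03 on the log2 scale in KO (interval -0.11 to 0.17). In the time series, where the mean of CT16, CT20, CT40 and CT44 was set against that of CT8 and CT32, the difference was 0.55 in Ctrl and 0.48 in SCNx. With CT20 and CT8 alone it was 0.75 and 0.52. All 4 night mice of SCNx, at 108 to 169.5 CPM, were above both of its day mice, at 89.2 and 104.5 CPM, although the SCNx curve over 12 mice was not called.

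The other transporters did not share a direction in KO. Slc2a12 was lower at ZT18 than at ZT7, with 158 CPM (153 to 164) against 217 CPM (210.1 to 224), a log2 difference of -0.45, compared with -0.06 in Ctrl and 0.22 in SCNx. Slc16a8 was higher at ZT18, with 27.0 CPM (24.7 to 29.5) against 16.8 CPM (14.9 to 18.8), a log2 difference of 0.69 beside -0.28 in Ctrl and 0.12 in SCNx. Slc2a8 and Slc2a1 were also higher at ZT18, by 0.55 (0.20 to 0.91) and 0.18 (0.08 to 0.28). In Ctrl both were lower at night, by differences of -0.24 and -0.32. The day mean of SCNx includes CT32, where the ChP markers were at their lowest, and which was the lowest SCNx library for Slc2a1, Slc2a8, Slc2a12, Slc16a8 and Slc16a9. With CT20 and CT8 alone, the difference of Slc2a12 was 0.06 in SCNx and -0.11 in Ctrl. That of Slc16a8 was then -0.19 in SCNx and -0.20 in Ctrl.

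For Slc2a4, Slc2a9, Slc16a1 and Slc16a9 the counting interval of the KO difference included 0. Slc2a9 rested on 14 and 23 counts and Slc2a4 on 67 and 59. The spread between mice is not known for KO.

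**Figure D5:**
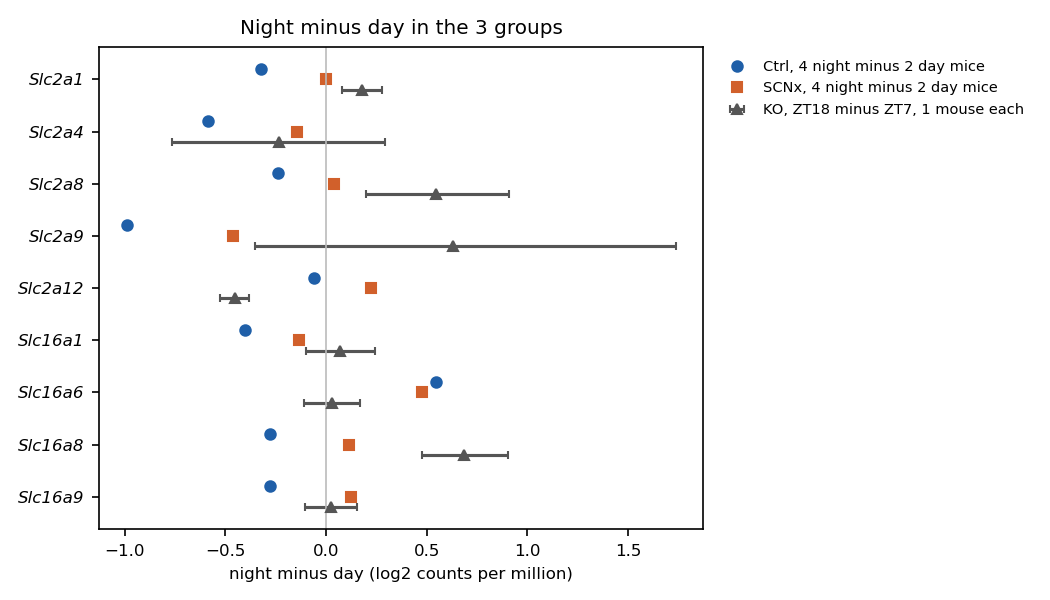
Night minus day difference of log2 CPM for each transporter, as the mean of CT16, CT20, CT40 and CT44 minus that of CT8 and CT32 in Ctrl (circles) and SCNx (squares), and as ZT18 minus ZT7 in KO (triangles, 1 mouse each, bars for the 95% counting interval). Slc16a6 is at 0.55 in Ctrl, 0.48 in SCNx and 0.03 in KO, and Slc2a12 is at -0.45 in KO. The day mean of SCNx includes CT32, the library of the time series with the lowest ChP markers.

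Other carriers of both families were mostly low or carried by the libraries that stood apart. Of 7 further SLC2 genes, 3 were tested. Slc2a3, the neuronal GLUT3, had 7.23 CPM in Ctrl CT4 and 18.6 CPM in SCNx CT32, and at most 3.14 CPM in any other library of the time series. Slc2a2, the GLUT2 of liver, had 6.12 CPM in Ctrl CT16 and 18.3 CPM in SCNx CT0, and at most 1.36 CPM elsewhere. Neither passed any of the tests of level or rhythm.

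Of 10 further SLC16 genes, 7 were tested and none was called in any of the edgeR comparisons. Near the threshold for a rhythm in Ctrl were Slc16a4 and Slc16a11, with adjusted p-values of 0.0545 and 0.0599. Their log2 amplitudes were 0.23 and 0.37 in Ctrl, with peaks at CT9.75 and CT10.8, and 0.05 and 0.06 in SCNx. The creatine transporter gene Slc16a12 had 84.9 ± 11.5 CPM in Ctrl and 82.5 ± 9.70 in SCNx (SD, n = 12 each), and Slc16a7 (MCT2) 4.36 ± 0.618 and 5.14 ± 2.81 CPM, the latter with 12.6 CPM in SCNx CT0. Slc16a3, the lactate exporter MCT4 of glycolytic cells, was too low to test, with means of 0.440 and 0.530 CPM. Of 6 sodium-coupled carriers only Slc5a1 passed the filter, at 1.83 CPM in both groups.

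Of the partners and regulators of the transporters, all 12 were tested and 0 were called rhythmic in Ctrl by edgeR, beside the 10.7% of all genes. Nptn, a relative of basigin, had a log2 amplitude of 0.12 ± 0.03 (SE, unadjusted p = 0.00977, adjusted p = 0.0720). Basigin (Bsg), the chaperone of MCT1 and MCT3, had 2406 ± 114 CPM in Ctrl and 2283 ± 303 in SCNx (SD, n = 12 each), with the lowest library of the time series, 1601 CPM, in SCNx CT32. Its fitted log2 amplitude in Ctrl was 0.00 ± 0.03 (SE, adjusted p = 1.0). Embigin (Emb), the partner of MCT2, had 557 ± 38.0 and 574 ± 53.7 CPM, and Txnip, which limits glucose uptake, 84.8 ± 14.5 and 93.2 ± 17.6 CPM, with a fitted log2 amplitude of 0.24 ± 0.08 in Ctrl (SE, adjusted p = 0.239).

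In the lists on metabolism and its regulators, 6 genes were rhythmic in Ctrl: 4 of sugar metabolism (Hk1, Pdk1, Pygb and Phka1), Xdh and Hif1a. Over all lists with the further carriers and partners included, 98 of 118 genes were tested, and these 6 are 6.12% of them, beside 10.7% of all genes. DESeq2 called 14 of the 98, beside 15% of all genes, and limma-trend called 5. Hk1, the hexokinase that traps glucose in the cell, peaked at CT2.75 with a log2 amplitude of 0.21 ± 0.03 (SE, adjusted p = 0.00261). Pygb peaked at CT7.01 and Pdk1, a kinase that slows pyruvate dehydrogenase, at CT8.06. Hif1a, the hypoxia-responsive factor, peaked at CT8.50 and Phka1, a subunit of phosphorylase kinase, at CT5.68, and the adjusted p-values of these 4 ran from 0.0162 for Pygb to 0.04996 for Phka1. With 1 library left out, the call held in 21 of 24 fits for Pygb, 17 for Hif1a, and only 5 each for Pdk1 and Phka1, with adjusted p-values of up to 0.195 for Pdk1 and 0.142 for Phka1.

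The counts by list were 1 of 21 for glycolysis and lactate, 1 of 14 for the entry of pyruvate into mitochondria, 2 of 16 for glycogen, 0 of 6 for ketone body use, 1 of 3 for urate and 1 of 15 for factors of the glucose, hypoxia and insulin responses. Pdk4, a further kinase of pyruvate dehydrogenase, peaked in its fitted curve at CT18.6, with an adjusted p of 0.0545. None of the 98 genes differed in level between SCNx and Ctrl in the edgeR test, with 3 at an unadjusted p under 0.05, beside 9.37% of all genes, and 0 by DESeq2 or limma. None was called rhythmic in SCNx, with 11 at an unadjusted p under 0.05, beside 14.8% of all genes. DESeq2 called 2 of them rhythmic in SCNx, beside 3.15% of all genes, and limma 0.

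Xdh, which makes the urate that GLUT9 carries, had a rhythm in Ctrl with a log2 amplitude of 0.59 ± 0.15 (SE), a peak at CT14.9 and an adjusted p of 0.00889. It had 10.5 to 31.4 CPM in Ctrl and 13.9 to 30.9 CPM in SCNx, and the highest libraries were Ctrl CT16 and SCNx CT0, those rich in hepatocyte markers. Its rhythm differed between Ctrl and SCNx (adjusted p = 0.0179), as did that of Hk1 (adjusted p = 0.0483). Without Ctrl CT16 and SCNx CT0 the rhythm of Xdh in Ctrl still passed (adjusted p = 0.0251), while the difference of Xdh was at an adjusted p of 0.0601 and that of Hk1 at 0.0810.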

How the data were processed

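The deposited values were estimated counts per gene, which the authors made from single-end reads with the nf-core/rnaseq pipeline on GRCm39, with Salmon 1.9.0, STAR, cutadapt 3.4, SAMtools 1.16.1 and StringTie 2.2.1 among the tools in the submitters' processing notes. Deposited TPM values were not used. Samples were grouped by their labels as Ctrl (n = 12), SCNx (n = 12) and KO (n = 2). Counts were rounded, and those of Ctrl and SCNx were scaled by TMM, those of KO by their library totals only. Genes with a mean of at least 1 CPM in Ctrl and in SCNx were tested with edgeR 4.0.16 in R 4.3.3. Levels were compared by group, and rhythms by a curve of 24 h per group, with the Benjamini-Hochberg adjustment over all genes tested and a threshold of 0.05. Amplitudes and peak times came from the coefficients of the edgeR fit, and their SE from least squares on log2 CPM with a prior count of 1. The curves of single cycles and of marker sums were fitted by least squares. Mice were the replicates.

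The 9 members and the gene lists were chosen with earlier results of these data known. Named genes were all members, the 3 genes most correlated with each rhythmic member, listed pathway genes that passed a test, and a few fixed carriers and partners. Slc2a2, Slc5a1, Slc16a4 and Slc16a11 were named after their values were seen. The values of 1 listed carrier are not reported here. Marker genes were summed per library. Alternatives were DESeq2 1.42.0, limma 3.58.1, other filters and scaling, a rank test with 1000000 random orders, and leaving out libraries. Intervals for KO cover counting error at 95%. On simulated data with 13697 genes, of which 200 were changed, the rhythm test in Ctrl recovered 14.5% of genes with a log2 amplitude of 0.2 and 60% of those with 0.4, the test of a difference in rhythm 0.5% and 37%, and the level test 46% of differences of 0.25 on the log2 scale and 81% of those of 0.5. Gene positions and lengths are those of GRCm38, since no annotation of GRCm39 was used here.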

Additional observations from a re-analysis of the deposited data

Results flagged for a closer look

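Among the members and the listed pathway genes, the 24 h rhythm of 3 differed between Ctrl and SCNx in edgeR's test of the difference itself. The adjusted p was 0.02685 for the transporter gene Slc16a6, with log2 amplitudes of 0.52 in Ctrl and 0.16 in SCNx. It was 0.0179 for Xdh, whose highest libraries were those rich in hepatocyte markers, and 0.04833 for Hk1. The difference of Hk1 was called in 6 of the 24 fits that left out 1 library.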

How the results depend on the processing

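The count of members rhythmic in Ctrl, 5 in the analysis reported, was 2 with no filter on low counts, beside 2.59% of all genes. It was 3 with a linear trend per group, beside 10.6%. By the rank test it was 3 at an adjusted p of 0.05, beside 6.69%, and 9 at 0.4, where 50.3% of all genes passed. DESeq2 called 7, beside 15%, limma-trend 6, beside 10%, and a separate fit per group 6, beside 14.6%. With 1 library left out, the count of members ran from 1 to 6. The count of members whose rhythm differed, 1 in the analysis reported, was 2 with DESeq2, beside 4.3% of all genes, and 2 with a linear trend, beside 2.49%. It was 2 without the 4 libraries that stood apart (a choice made after the data were seen), beside 4.79%, and 0 to 1 with 1 library left out. For the fits that left out 1 library, the shares of all genes are not given here. The counts for level and for rhythm in SCNx stayed at 0. Over all genes, the calls of a rhythm in SCNx went from 0 to 1260 with no filter and 432 with DESeq2, those of a difference in rhythm from 291 to 578, 589 and, without the 4 libraries, 641, those of a rhythm in Ctrl from 1459 to 2900 without the 4 libraries, and those of level from 0 to 14 with DESeq2. The cause was not tested.

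Signs turned only for level differences that passed no test. That of Slc2a9 was -0.0938 without Ctrl CT16 and SCNx CT0 and -0.0849 without all 4 libraries, and -0.164 to 0.121 with 1 library left out. That of Slc16a1 was 0.0196 without Ctrl CT4 and SCNx CT32, 0.00752 without all 4, and -0.0523 to 0.0358 with 1 left out. Slc16a6 ran from -0.0336 to 0.0787 and Slc16a8 from -0.00633 to 0.0657. Of 1243 alternative values of single members, 1158 kept sign and call, 66 changed the call and 19 the sign. With 1 mouse per time point, shallow rhythms lie near the limit of detection. The labels number no replicates. Pairing the mice of both groups by circadian time, as a block in the test of levels, called 0 members.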

Other observations

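After the data were seen, each member was set against Arntl over the mice of a group, in 18 relations with permutation tests adjusted after Benjamini and Hochberg. In Ctrl, Slc16a6 ran with Arntl (Pearson's r = 0.935, p = 8e-05, adjusted p = 0.00144; Spearman's rho = 0.937, p = 5e-05, adjusted p = 0.0009), and r was 0.908 without the mice of CT32 and CT36, which were farthest from the median of Arntl. Both genes are rhythmic over the same 12 mice, so the relation holds their shared time course. In SCNx, r was 0.648 (permutation p = 0.0266, adjusted p = 0.0684) and rho 0.483 (permutation p = 0.116, adjusted p = 0.160). Without the mice of CT4 and CT8, the farthest from the median of Arntl in SCNx, r was 0.302. Leaving them out also narrows the range of Arntl, so the drop does not settle what the relation in SCNx rests on. Of the other members, Slc2a4, Slc2a8, Slc2a9, Slc2a12 and Slc16a8 ran against Arntl in Ctrl, with r between -0.831 and -0.717 (adjusted permutation p between 0.00822 and 0.0235) and rho between -0.846 and -0.713 (adjusted permutation p between 0.00945 and 0.0303), and r between -0.774 and -0.600 without the same mice. These relations also hold the shared time course, since the permutations ignored the order of time. They are thus no support for a rhythm apart from the fitted curves, and Slc2a8, Slc2a9 and Slc16a8 were not called rhythmic by edgeR. In SCNx, Slc2a9 passed by rank (rho = -0.755, permutation p = 0.00606, adjusted p = 0.0218) but not by r (r = -0.511, permutation p = 0.0942, adjusted p = 0.170), and r was -0.579 without the mice of CT4 and CT8. The remaining relations had an adjusted p above the threshold by both measures.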
